A study of Rattus norvegicus with 24 samples.

Results

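The 8 genes described here mark excitatory neurons of the cerebral cortex: Slc17a7, Neurod6, Neurod2, Neurod1, Tbr1, Cux2, Rorb and Fezf2. They were chosen by gene name on the microarray, and 11 probes carry these names, out of 45598 probes. All 8 genes were among the 20902 genes kept for testing, but Tbr1 was kept through the chronic group alone, since its probe was well above background on 1 saline, 3 acute and 5 chronic arrays of 8 each. RNA came from the manually dissected left dorsal striatum of male Long Evans rats aged 80 to 90 days and was hybridised to 24 one-colour Agilent arrays, 8 per group. Every rat received 5 daily intraperitoneal injections, and the brain was taken 24 hours after the fifth. Saline rats received saline alone, acute rats received saline on 4 days and then MDPV, and chronic rats received MDPV each day, at 1 mg/kg. MDPV (methylenedioxypyrovalerone) is a synthetic cathinone stimulant that blocks dopamine and noradrenaline reuptake. The study asked how single and repeated MDPV change striatal gene expression. The series states 6 rats per group, and 6 pairs of arrays carry titles with a shared letter, so each pair was averaged to give 18 units, 6 per group. The labels do not say that such a pair is 1 rat or that the units are separate rats, so p-values measure the spread between these samples, which may be technical.

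The dorsal striatum is built mostly of GABAergic projection neurons, while its main glutamatergic input comes from axons of cortical and thalamic neurons whose cell bodies lie outside it. Cortical excitatory neurons package glutamate with the vesicular transporter encoded by Slc17a7 (VGLUT1), and their identity is set by transcription factors such as Neurod2, Neurod6, Tbr1 and Fezf2. Because the transcripts of these genes reside mainly in cell bodies, and the cortex lies next to the striatum across a thin sheet of white matter, they are commonly used to judge how much cortex a striatal dissection holds.

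The probes of the 5 members that moved most closely together are shown so that their difference in sequence can be seen. This set of 5 was picked after the values were seen. For Neurod2 the second probe is shown, while the Neurod2 values below are those of its first probe unless the second is named. Each probe is written 5′ to 3′ as in the deposited array files, and capitals mark the longest run of letters that it shares with a probe of another member.
Slc17a7: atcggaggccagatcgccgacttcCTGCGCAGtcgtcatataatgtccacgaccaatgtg
Neurod6: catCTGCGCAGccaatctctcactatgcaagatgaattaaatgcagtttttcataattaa
Neurod2, second probe: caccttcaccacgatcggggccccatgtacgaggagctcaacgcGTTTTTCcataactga
Tbr1: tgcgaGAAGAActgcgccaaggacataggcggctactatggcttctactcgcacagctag
Fezf2: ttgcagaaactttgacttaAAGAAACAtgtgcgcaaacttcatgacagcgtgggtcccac
On the rn4 build that the files use, these probes lie at chr1:95649107-95649166 on the plus strand (Slc17a7), chr4:84476853-84476912 on the minus strand (Neurod6), chr10:87098513-87098572 on the minus strand (Neurod2), chr3:43647046-43647105 on the minus strand (Tbr1) and chr15:14354072-14354131 on the plus strand (Fezf2). The files name a transcript for each probe but no exon, and the exon was not looked up here. Over 52 pairs of probes of different members, the longest shared run was 8 of 60 letters. The most similar pair, Neurod6 and the second Neurod2 probe, matched at 34 of 60 positions when aligned without gaps.

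On each array 50.7% to 71.3% of the 58717 non-control spots were well above background, and none was saturated. Genes that define the labelled tissue were bright on every array. Ppp1r1b (DARPP-32, a phosphatase inhibitor of striatal projection neurons) ranged from 3.10 to 5.72 and Penk (proenkephalin) from 2.88 to 4.59 over the 24 arrays, on the log2 scale relative to each array's 75th percentile of signal, which all values below use. Both were lowest on saline replicate 4. That array also stood apart in hypothalamic genes, with Avp (vasopressin) at 2.60 and Oxt (oxytocin) at 1.99, against medians of -4.73 and -2.16 over the 24 arrays. Saline replicates 4 and 5 and chronic replicate 8 stood apart in the cortical genes, as described next, and group results are given with and without these 3 arrays.

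Of the members, 5 (Slc17a7, Neurod6, Neurod2, Tbr1 and Fezf2) had their lowest values on the same 3 of the 24 arrays. They ranged more widely than most genes, as did Neurod1 and Cux2, which are described below. Slc17a7 had a median of -3.56 and reached -2.53 on its highest array, chronic replicate 2. Its SD of 1.51 was above that of 99.7% of the genes kept, whose median SD was 0.28. The 3 lowest arrays were chronic replicate 8 at -8.50, saline replicate 5 at -7.35 and saline replicate 4 at -6.22, and the next lowest was at -5.25. On these 3 arrays alone the Slc17a7 probe was not well above background, so their values have no reliable order or distance. The log2 range of 5.97 became 2.67 with normexp background correction and 2.72 over the other 21 arrays. In bulk RNA, fewer cells of a type and less RNA per cell cannot be told apart.

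Neurod6 and Neurod2, basic helix-loop-helix factors of cortical excitatory neurons, were well above background on all 24 arrays and so measured the same 3 arrays directly. Neurod6 was -4.58 on saline replicate 5, -4.17 on saline replicate 4 and -4.08 on chronic replicate 8, and the other 21 arrays lay between -2.26 and -0.37. Neurod2 was -4.89, -3.99 and -4.31 on these arrays, and the others lay between -2.63 and -0.27. For both genes the 3 arrays lay clear of the rest, at the low end of an 18.6-fold and a 24.5-fold range. The second Neurod2 probe, well above background on 20 arrays, was not well above background on these 3 arrays and on saline replicate 2, so it gives no order among the 4, which were its lowest.

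Fezf2, a zinc-finger factor that specifies deep-layer neurons projecting below the cortex, was well above background on all 24 arrays. It was -4.97 on saline replicate 4, -4.53 on saline replicate 5 and -4.48 on chronic replicate 8, and the others lay between -3.71 and -1.34. Tbr1, a T-box factor of deep-layer corticothalamic neurons, was -9.59 on saline replicate 5, -8.47 on saline replicate 4 and -8.47 on chronic replicate 8. Both genes again had these 3 arrays as their lowest. Tbr1 was well above background on only 9 arrays, none of them among the 3, and its next lowest value was -7.97. Without the 3 arrays the range of Fezf2 fell from 12.4-fold to 5.20-fold. The log2 range of Tbr1 rests on values not well above background, and its 4.94 became 3.32 without the 3 arrays, 3.17 with dim values set to the array's floor and 1.63 with normexp correction. The corresponding ranges without them were 3.70-fold for Neurod6 and 5.11-fold for Neurod2.

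**Figure D1:**
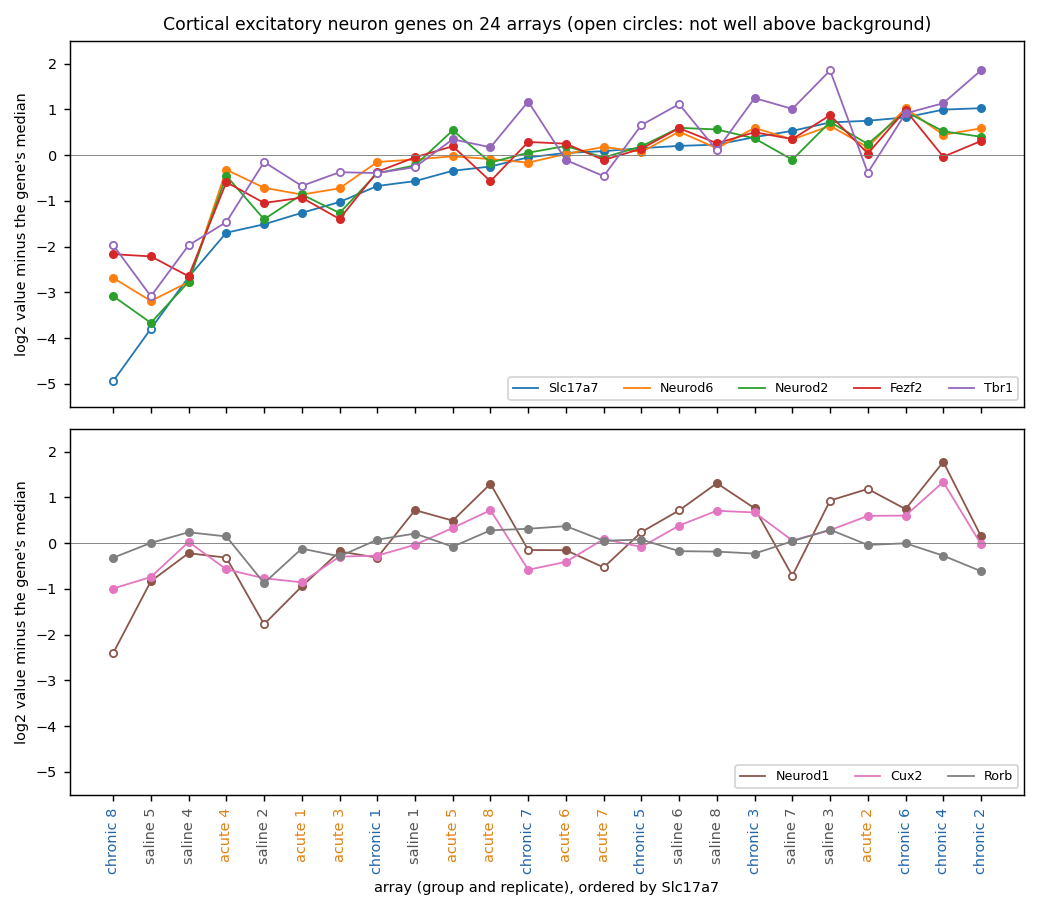
Level of each member on the 24 arrays, ordered by Slc17a7, as log2 signal relative to the array's 75th percentile minus the gene's own median; filled circles are well above background and open circles are not. Slc17a7, Neurod6, Neurod2, Fezf2 and Tbr1 (top) have their 3 lowest values on chronic replicate 8 and saline replicates 5 and 4, while Cux2 and Rorb (bottom) lie near their medians on saline replicate 4.

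The other 3 members did not share this order throughout. Neurod1, a basic helix-loop-helix factor of neuronal differentiation, lay lowest on chronic replicate 8, at -8.30, and highest on chronic replicate 4, at -4.12, and was well above background on 13 arrays. Its log2 range of 4.18 became 2.72 with dim values at the floor and 1.16 with normexp correction. Cux2, a homeodomain factor of upper-layer neurons, had the same extremes, -1.94 and 0.38, a 5.02-fold range. Both varied more than most genes, with an SD above that of 98.76% of the genes kept for Neurod1 and 91.32% for Cux2. For Fezf2 that share was 98.65%. Saline replicate 4, among the 3 lowest for the first 5 members, ranked 9 from the lowest of 24 for Neurod1 and 13 for Cux2. Saline replicate 5 ranked 4 from the lowest for both. Rorb, a nuclear receptor of middle-layer neurons, ranged only from -1.48 on saline replicate 2 to -0.23 on acute replicate 6. Its SD of 0.30 was above that of 54.5% of the genes, so Rorb varied about as much as a typical gene, and it ranked saline replicate 4 as 20 from the lowest. Rorb is also known to be transcribed in neurons outside the cortex.

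Genes of neighbouring tissues moved with the low values on these 3 arrays. Of the 6 measured genes of 11 listed for the choroid plexus, the mean level was 0.57 on chronic replicate 8, 0.56 on saline replicate 5 and -0.25 on saline replicate 4, and between -6.39 and -0.60 on the other 21 arrays. These were the 3 highest choroid plexus levels. Ttr (transthyretin, the main secreted protein of the choroid plexus) was 6.22, 5.92 and 6.20 on them, but was higher still, at 6.28, on saline replicate 3, where Slc17a7 was -2.84. Folr1 (a folate receptor of the choroid plexus) was -0.22, -0.52 and -1.31 on chronic replicate 8 and saline replicates 5 and 4, against a median of -4.63 over the 24 arrays. A choroid plexus signal was therefore also present on an array with a high Slc17a7 level. The mean of the 9 measured genes for thalamus, septum and pallidum was -1.18 on saline replicate 4 and -1.93 on saline replicate 5, above the -3.51 to -2.51 of the other 21 arrays. On chronic replicate 8 it was -3.17, within that range. Slc17a6 (VGLUT2, the vesicular glutamate transporter of thalamic neurons) was 0.30 on saline replicate 4, -0.95 on saline replicate 5 and -3.78, its lowest value, on chronic replicate 8. Tcf7l2 (a factor of thalamic neurons) was -0.77, -0.93 and -2.19 on these arrays, against a median of -2.53. The 15 striatal projection neuron genes had their lowest mean, 0.72, on saline replicate 4, while saline replicate 5 at 1.98 and chronic replicate 8 at 2.24 lay within the 1.34 to 2.45 of the rest. The part of these tissues in the low cortical values was not tested.

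**Figure D2:**
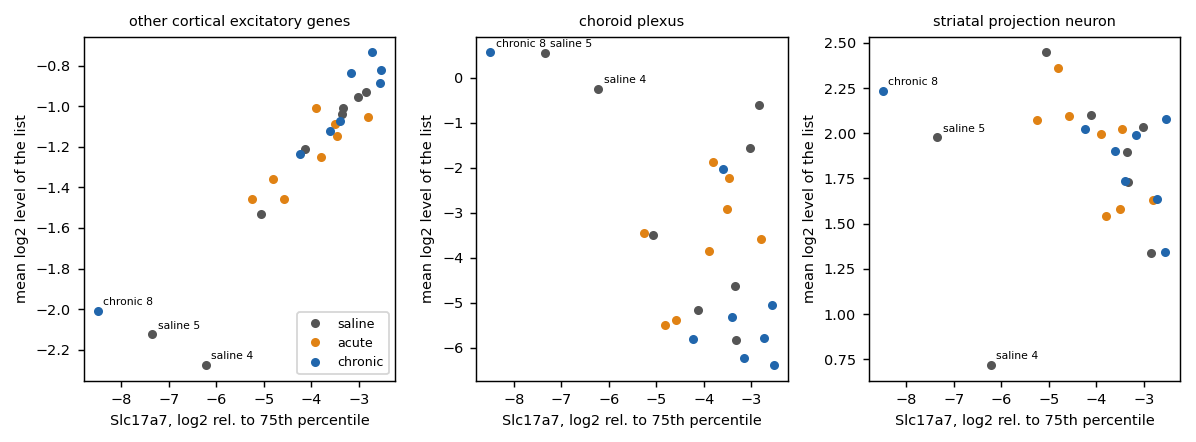
Slc17a7 (horizontal axis) against the mean log2 level of the 37 measured other cortical genes, the 6 choroid plexus genes and the 15 striatal projection neuron genes (vertical axes), one point per array, coloured by treatment group. The 3 arrays lowest in Slc17a7 are lowest in the other cortical genes and highest in the choroid plexus genes, and only saline replicate 4 is low in the striatal genes.

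The covariation of the members was tested over the 18 units for all 28 pairs, with permutation p-values adjusted by Benjamini-Hochberg over the 28. By Pearson's r 17 pairs passed an adjusted p of 0.05, and by Spearman's rho 20 did. The share that would pass among pairs of all genes is not given here, so these counts have no background beside them. Slc17a7 and Neurod6 had r = 0.924 (adjusted permutation p = 3.5e-05) and rho = 0.882 (adjusted permutation p = 0.000187) over 18 units. Neurod6 and Neurod2 had the highest r of the 28, at 0.963, and rho = 0.870. The smallest p the permutations can give is 1e-05.

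All 10 pairs among Slc17a7, Neurod6, Neurod2, Tbr1 and Fezf2 passed, with r from 0.822 to 0.963 and rho from 0.752 to 0.882. The relation did not rest on the lowest samples alone. Without the 2 units farthest from the median of the first gene r was 0.664 to 0.897, and over the 21 arrays left without the 3 lowest it was 0.621 to 0.921. The 2 units left out were saline units, so the unit with chronic replicate 8 stayed in. Each slide holds 8 arrays of all 3 groups, and within single slides r was 0.720 to 0.996, positive for every one of the 10 pairs on each of the 3 slides. Slides 2 and 3 hold the 3 low arrays, which can raise r there. Only slide 1, with r of 0.720 to 0.969, and the 21 arrays are free of them. With group means removed, Slc17a7 and Neurod6 still had r = 0.922. Tbr1 was well above background on only 9 arrays, and Slc17a7 on none of the 3 lowest, so the pairs of these 2 genes rest in part on dim values. The 2 probes of Neurod2 agree closely, with r = 0.970 over 18 units (permutation p = 1e-05) and 0.884 over the 21 arrays.

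Neurod1 and Cux2 formed a second close pair. Their r was 0.847 (adjusted permutation p = 3.5e-05) and their rho 0.754 (adjusted permutation p = 0.00134) over 18 units. It was 0.722 without the 2 farthest units, 0.873 over the 21 arrays, and 0.911, 0.970 and 0.863 within the 3 slides. By r over 24 arrays Cux2 ranked 6 among 20788 genes for Neurod1. With the 5 genes above, Neurod1 had r from 0.482 to 0.681 and passed with 4 of them, all but Fezf2. Cux2 had r from 0.396 to 0.624 and passed with 2, Slc17a7 and Neurod2, by Pearson's r and with 4, all but Tbr1, by Spearman's rho. Neurod1 was dim on 11 of the 24 arrays, and its pairs depended on the processing. With normexp correction 3 of its 4 calls with the 5 genes were lost, at r = 0.428 with Neurod6 (adjusted permutation p = 0.118), 0.508 with Neurod2 (adjusted permutation p = 0.055) and 0.121 with Tbr1 (adjusted permutation p = 0.769). The pair with Tbr1 was also lost with quantile normalization (r = 0.342) and with the authors' values (r = 0.340). Neurod1 and Cux2 passed in each of these settings.

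Rorb passed with none of the 7 others. Its r ranged from -0.194 with Cux2 to 0.121 with Neurod2, and its sign with Slc17a7 differed between slides, at 0.209, -0.486 and 0.581. The 2 Rorb probes themselves had r = 0.172 (adjusted permutation p = 0.492) over 18 units. Over 24 arrays the first Rorb probe had r = 0.077 with Slc17a7 and the second 0.492. The 2 Cux2 probes had r = 0.330 over 18 units (adjusted permutation p = 0.272), and over 24 arrays they had r = 0.685 and 0.148 with Slc17a7. For Cux2 and Rorb the pattern thus depended on the probe read, and the second Cux2 probe was well above background on only 13 arrays.

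**Figure D3:**
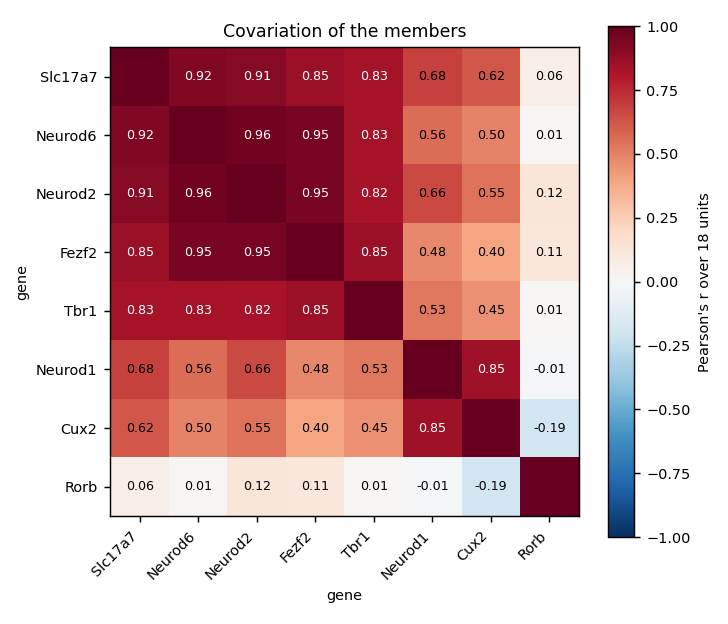
Pearson's r between the 8 members over 18 units, red for positive and blue for negative values. Slc17a7, Neurod6, Neurod2, Fezf2 and Tbr1 form a block with r of 0.82 or more, Neurod1 and Cux2 a pair at 0.85, and Rorb lies between -0.19 and 0.12 with all others.

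**Figure D4:**
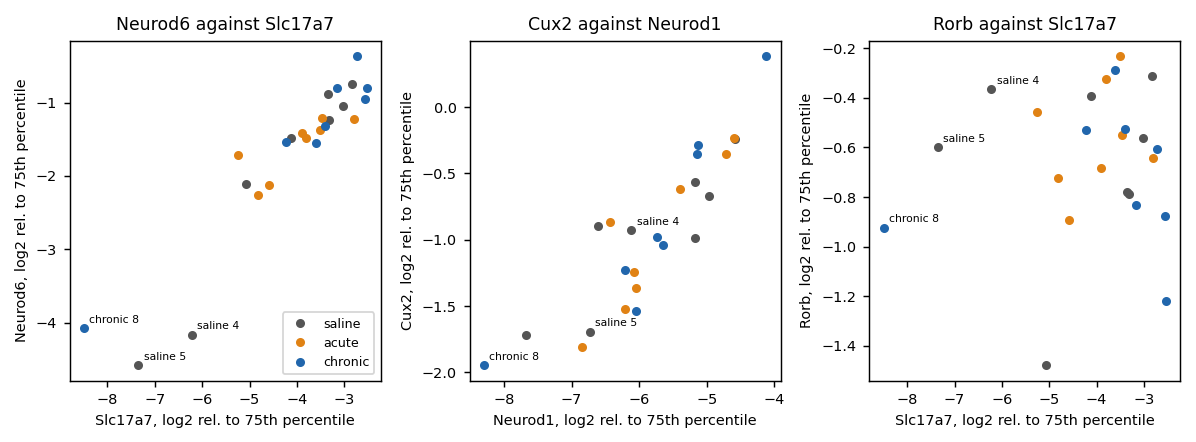
Pairs of members on the 24 arrays (log2 signal relative to the array's 75th percentile on both axes), coloured by treatment group, with the 3 arrays lowest in Slc17a7 named. Neurod6 follows Slc17a7 also among the other 21 arrays, Cux2 follows Neurod1 with saline replicate 4 in mid-range, and Rorb shows no relation to Slc17a7.

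Neurod6 and Neurod2 had the highest correlation of all pairs, and the stretches before their gene starts are shown with one motif of neurogenic basic helix-loop-helix factors. This is the E-box CAGATG, reported in mouse for NEUROD2, which reads CATCTG on the other strand. The 250 bases upstream of each start come from RefSeq (GRCr8), with matches on either strand in capitals.
Neurod6: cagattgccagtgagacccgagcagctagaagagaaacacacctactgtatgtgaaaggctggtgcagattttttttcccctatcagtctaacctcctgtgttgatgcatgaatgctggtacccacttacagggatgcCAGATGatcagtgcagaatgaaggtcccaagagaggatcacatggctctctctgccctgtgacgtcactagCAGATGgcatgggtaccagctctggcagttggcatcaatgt
Neurod2: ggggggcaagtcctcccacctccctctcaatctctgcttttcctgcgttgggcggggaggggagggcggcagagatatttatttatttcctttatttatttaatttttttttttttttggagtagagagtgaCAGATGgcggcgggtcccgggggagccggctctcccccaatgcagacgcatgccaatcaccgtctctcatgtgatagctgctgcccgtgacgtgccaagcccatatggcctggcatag
On GRCr8 these lie at chr4:86180156-86180405 (Neurod6) and chr10:83824278-83824527 (Neurod2), both on the minus strand. The motif begins at -112 and -41 from the Neurod6 start and at -118 from the Neurod2 start. It was found in these 2 of the 8 members and in 13.96% of 33469 promoters of the same length. The E-box CAGCTG was found in none of the 8 windows and in 11.97% of all promoters. The T-box letters TCACAC were found in none of the 8 and in 11.6% of all. The nuclear receptor letters AGGTCA were likewise found in none of the 8 and in 14.1% of all. These counts describe letters only.

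Among genes with a symbol other than the members, the 10 most like Slc17a7 over the 24 arrays, by Pearson's r, are given as a description, since all share the same arrays. They were Rtn4r (the Nogo receptor) at 0.956, Crhbp (a binding protein of corticotropin-releasing hormone) at 0.953, Stx1a (a presynaptic syntaxin) at 0.951, Ttc9b at 0.949, Olfm1 (olfactomedin) at 0.947, Nxph3 (a neurexophilin) at 0.945, Tspan17 (a tetraspanin) at 0.943, Hs3st2 (a heparan sulfate sulfotransferase) at 0.942, Nrn1 (neuritin) at 0.932 and Nptx1 (a neuronal pentraxin) at 0.932. Over the 21 arrays, 8 of these 10 still had r above 0.85, while Nxph3 fell to 0.768 and Nptx1 to 0.727. In the order of all 20788 genes by r with Slc17a7, members included, Neurod6 ranked 10, Neurod2 11, Fezf2 50, Tbr1 83, Neurod1 411, Cux2 539 and Rorb 9663.

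A further list of 43 genes of cortical excitatory neurons had 37 measured genes. Of these 17 had r above 0.5 with Slc17a7 over the 24 arrays, against 9.78% of all genes, and 15 did over the 21 arrays, against 8.80%. Hs3st2, Nrn1 and Nptx1 are on this list too. Cck (cholecystokinin, abundant in cortical excitatory neurons) had r = 0.924 with Slc17a7 and ranged from 2.44 on chronic replicate 8 to 5.30. Nrgn (neurogranin, a postsynaptic calmodulin-binding protein) had r = 0.588. Crym at 0.249, Otof at 0.419 and Rtn4rl2 at 0.364 followed it less closely. The list's mean level had r = 0.908 with Slc17a7 over 18 units (permutation p adjusted over 13 lists = 0.00013) and rho = 0.895, and r = 0.869 without the 2 farthest units. The mean of the list was -2.28 on saline replicate 4, -2.12 on saline replicate 5 and -2.01 on chronic replicate 8, below the -1.53 to -0.73 of the other 21 arrays.

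Of 12 further marker lists set against Slc17a7 in the same way, 1 passed. The 7 hypothalamic genes had r = -0.579 over 18 units (adjusted permutation p = 0.0423), but rho was -0.304 and r was -0.166 without the 2 farthest units and -0.378 (adjusted permutation p = 0.438) without saline replicate 4, so this relation rested on those units. The striatal projection neuron genes had r = 0.050 (adjusted permutation p = 0.846) over the 18 units, but 1 array decided this value. Without saline replicate 4 they had r = -0.540 over the remaining arrays (adjusted permutation p = 0.0273), and over the 21 arrays r = -0.671 (adjusted permutation p = 0.0029). With that unit left out of the 18, r was -0.606 and the adjusted permutation p was 0.0558. The 9 interneuron genes depended on the same array. They had r = 0.149 (adjusted permutation p = 0.658) over 18 units, 0.733 (adjusted permutation p = 0.0039) with the unit of saline replicate 4 left out, and 0.772 (adjusted permutation p = 0.00013) over the 21 arrays. Pvalb (parvalbumin, of fast-spiking interneurons) was highest on saline replicate 4, at 2.44, and its r with Slc17a7 was 0.062 over the 24 arrays and 0.695 over the 21. Sst (somatostatin) had r = 0.302 and 0.131. The choroid plexus genes had r = -0.370 (adjusted permutation p = 0.243) over 18 units, -0.576 (adjusted permutation p = 0.0179) over the 24 arrays and 0.009 over the 21. Within slides the choroid plexus value was 0.130, -0.912 and -0.648, with a low array on slides 2 and 3 only. The remaining 8 lists, for claustrum, hippocampus, thalamus, oligodendrocytes, astrocytes, microglia, vessels and blood, and ependyma, lay between -0.480 and 0.517, with adjusted permutation p of 0.117 or more over 18 units. Of these the claustrum list passed over the 24 arrays (r = 0.533, adjusted permutation p = 0.0399), and its r was 0.153 over the 21.

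No member passed the test for a difference between treatment groups. In the limma fit over 18 units, 0 of 8 passed an adjusted p of 0.05 in any comparison or in the F test over the 3 groups, and the background was the same, with 0% of the 20902 genes past it in each. At an unadjusted p under 0.05, 0 of 8 members stood against 1.59% of genes for acute minus saline, 2.87% for chronic minus saline, 2.48% for chronic minus acute and 1.71% for the F test. No member had groups of arrays that did not overlap. The share over all genes is not given here, so this count says nothing particular to the members.

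Slc17a7 lay between -7.35 and -2.84 (median -3.74) on the 8 saline arrays, between -5.25 and -2.81 (median -3.85) on the acute arrays and between -8.50 and -2.53 (median -3.28) on the chronic arrays. The groups overlapped throughout, and the acute arrays, which include none of the 3 low ones, spread least. Over 6 units each, the means were -4.23 ± 1.57 (SD) for saline, -3.91 ± 0.67 for acute and -3.69 ± 1.10 for chronic. In these units chronic replicate 8 was averaged with chronic replicate 6, at -2.73, and saline replicate 5 with saline replicate 2, at -5.07. Saline replicate 4 is a unit alone, so the low arrays do not weigh alike in the unit means and SDs. The difference was 0.32 for acute minus saline (95% interval -0.997 to 1.64, limma adjusted p = 1.00), 0.54 for chronic minus saline (-0.78 to 1.86, adjusted p = 0.999) and 0.22 for chronic minus acute (-1.10 to 1.54, adjusted p = 0.976). The 3 intervals reach down to -1.10 and up to 1.86, and changes of Slc17a7 inside them were not detectable with these arrays. The means include the 3 arrays where the probe was dim, and with normexp correction the differences were 0.03, 0.29 and 0.26 in the same order.

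Neurod6 lay between -4.58 and -0.75 (median -1.37) on saline, -2.26 and -1.21 (median -1.45) on acute and -4.08 and -0.37 (median -1.14) on chronic arrays. Neurod2 lay between -4.89 and -0.50 (median -1.39), -2.49 and -0.68 (median -1.33) and -4.31 and -0.27 (median -0.95) in the same order. For both genes the acute arrays fell inside the spread of the other groups. The chronic minus saline difference was 0.57 (SE 0.49) for Neurod6 and 0.61 (SE 0.56) for Neurod2, neither past the threshold (limma adjusted p = 0.999 for each).

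Fezf2 lay between -4.97 and -1.45 (median -2.21) on saline, -3.71 and -2.07 (median -2.66) on acute and -4.48 and -1.34 (median -2.11) on chronic arrays. Tbr1 lay between -9.59 and -4.65 (median -6.52), -7.97 and -6.16 (median -6.88) and -8.47 and -4.65 (median -5.48). The chronic median of Tbr1 was the highest of the 3, but the groups overlapped. Its chronic minus acute difference of 0.97 (SE 0.56, 95% interval -0.22 to 2.15) did not pass (limma adjusted p = 0.960), and it was 0.39 (SE 0.19) with normexp correction. The Tbr1 probe was kept through the chronic group alone and was not well above background on most arrays of the other groups, so this difference rests largely on dim values.

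Neurod1 had chronic minus saline and acute minus saline differences of 0.17 and 0.08 (SE 0.45), and Cux2 of 0.09 and -0.03 (SE 0.29). Rorb was measured most tightly, at -0.09 for chronic minus saline (95% interval -0.36 to 0.19) and 0.00 for acute minus saline (-0.28 to 0.28). For this Rorb probe these intervals leave room for small changes only. The second Rorb probe gave -0.04 for chronic minus saline and -0.19 for acute minus saline (SE 0.15 for each). For the 5 members low on the same 3 arrays the SE lay between 0.49 and 0.63, against a median of 0.14 over all genes.

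Of the 8 members, 6 were higher in acute than in saline, 7 higher in chronic than in saline and 7 higher in chronic than in acute, with median differences of 0.05, 0.47 and 0.18. Over all genes 49.1%, 56.5% and 56.5% were higher, with medians of -0.00, 0.02 and 0.02. Without the 3 low arrays the counts were 1, 8 and 7 of 8. They come from a fit over 21 single arrays, not over units, and the shares of all genes in that fit are not given here. The comparisons share groups and the members share arrays, so these counts are not independent. Of the 37 other cortical genes, 28, 36 and 29 were higher, with medians of 0.14, 0.27 and 0.13, and none passed the threshold. Of the 3 low arrays 2 are saline and 1 is chronic. Beside these differences, all 6 measured choroid plexus genes were lower in chronic than in saline, with a median of -2.03, and all 6 lower in acute than in saline, with a median of -1.29, though none passed the threshold either. Other lists also lay to 1 side, again with no gene past the threshold. Of the 15 striatal projection neuron genes, 14 were higher than saline in acute and 14 in chronic, with medians of 0.25 and 0.17. In chronic all 9 genes of thalamus, septum and pallidum and all 7 of the hypothalamus were lower than in saline, with medians of -0.45 and -1.01. In acute 8 of the 9 and all 7 were lower than in saline, with medians of -0.42 and -0.72. The 12 oligodendrocyte genes all had acute means below the saline means, with a median of -0.12, and 11 had chronic means below them, with a median of -0.08. Both comparisons share the saline group, which holds saline replicate 4. The part of these differences in the cortical values was not tested.

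**Figure D5:**
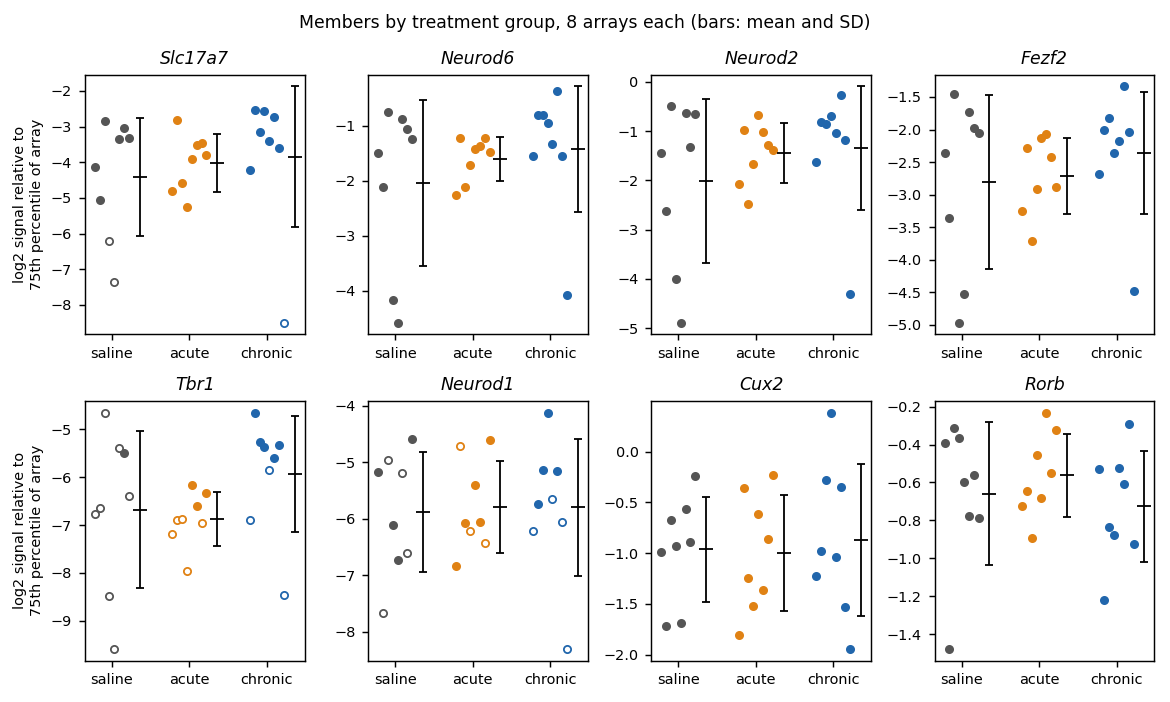
Level of each member (log2 signal relative to the array's 75th percentile) in the 3 treatment groups, one point per array, 8 per group, with mean and SD beside the points; open circles are not well above background. The groups overlap for every member, and the 3 lowest points of Slc17a7, Neurod6, Neurod2, Fezf2 and Tbr1 are 2 saline arrays and 1 chronic array.

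The chronic minus saline differences of Neurod6 and Neurod2 changed sign between slides. Slide 2 holds saline replicates 4 and 5, and there chronic minus saline was 2.33 for Neurod6. Slide 3 holds chronic replicate 8, and there it was -1.67. On slide 1, which holds none of the 3, the difference was 0.40. Neurod2 gave 0.42, 2.501 and -1.74 on slides 1, 2 and 3. Slc17a7 had the same signs, but its sizes on slides 2 and 3 rest on dim values and are not given. In none of the 3 comparisons did any member have the same sign on all 3 slides. The share of all genes with the same sign is not given here, so this count says nothing particular to the members. Rorb had other signs for chronic minus saline, at -0.09 on slide 2 and 0.07 on slide 3. Acute minus saline on slide 3, where neither group holds a low array, was -0.22 for Neurod6 and 0.23 for Rorb. A slide holds 2 to 4 arrays of a group, and no test was run on single slides. The part of the low arrays in these signs was not tested.

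Leaving out the 3 arrays, a choice made after the data were seen and by the level of the genes themselves, turned the sign of several small differences. This fit took the other 21 arrays singly as replicates, not the averaged units. Its SE and p-values may therefore count a rat more than once and are not on the same footing as those above. For acute minus saline Slc17a7 went to -0.39, Neurod6 to -0.34, Neurod2 to -0.25 and Fezf2 to -0.55, while Tbr1, already lower, went from -0.37 to -0.98 (SE 0.35, limma adjusted p = 0.890). For chronic minus acute the differences grew, to 0.84 (SE 0.37) for Slc17a7, 0.55 (SE 0.22) for Neurod6, 0.65 (SE 0.27) for Fezf2 and 1.31 (SE 0.34) for Tbr1, each with a limma adjusted p of 0.612. These 4 members had an unadjusted p under 0.05, as did 6.42% of all genes. For acute minus saline 1 of 8 members, Tbr1, did, against 3.08% of genes, and for chronic minus saline 0 of 8, against 2.16%. No gene passed the adjusted threshold (0% in each comparison).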

How the data were processed

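The deposited files are scanner outputs of 24 Agilent arrays on 3 slides. Per the file headers and the submitters' processing notes (Agilent Feature Extraction 10.7), the authors' intensity values were background-subtracted and detrended within each array, with no scaling between arrays. The log2 of the processed signal was taken here minus the array's 75th percentile. Flagged outlier spots were left out, and 156 values of kept probes were missing. Spots of a probe were averaged. Of 45598 probes, 26259 well above background on 0.5 or more of the arrays of a group were kept, and a gene's probe with the highest mean stood for it, giving 20902 genes. The flags used (well above background, saturated, outlier) are the authors' deposited 0 or 1 calls. The authors' deposited log2 value table was used as an alternative.

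Groups were compared with limma 3.58.1 in R 4.3.3 over 18 units with a shared spread and Benjamini-Hochberg adjustment over all genes at 0.05. The fit was tested on simulated data. Correlations used 100000 permutations over 18 units, two-sided. The number of arrays and their signal over background, a median of 6.45 to 10.4 per array, limit the precision. The members, the marker lists and the rule for named genes were chosen with earlier results of these data known. The text names all 8 members with each probe, among genes with a symbol in the RefSeq table, members left out, the 10 highest and 5 lowest by r with Slc17a7, the 6 other cortical genes with the highest mean (1 of them is not reported here), and the first 2 measured genes of the striatal, interneuron, choroid plexus, thalamic and hypothalamic lists. The rule covers the other lists too, but these are given as list means only. Alternatives were the normalization, background correction, filters, probe, slide, letter pairs and each unit left out.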

Additional observations from a re-analysis of the deposited data

Results flagged for a closer look

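Of 33 groups of 8 arrays tested (11 probes in 3 groups), 6 held an array whose gap to its nearest neighbour exceeded Dixon's 95% critical share of the range, where chance gives about 1 in 20. All probes are read on the same arrays, so the 33 groups are not independent and the count is not a test against chance. In 5 of them the array was chronic replicate 8. It was the lowest of the chronic arrays for Slc17a7 at -8.50, with the next at -4.23. It was the lowest for Neurod6 at -4.08 and for both Neurod2 probes at -4.31 and -7.54. For Fezf2 it was at -4.48, with the next at -2.68. The sixth was saline replicate 2, the lowest saline array for Rorb at -1.48, with the next at -0.79. The low saline replicates 4 and 5 were not set apart in this way, since there are 2 of them in 1 group and each is the other's neighbour. On chronic replicate 8 the Slc17a7 probe and the second Neurod2 probe were not well above background, so the size of the gap is uncertain in those 2 of the 6 groups.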

How the results depend on the processing

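No paired analysis was possible because replicate numbers in these labels were given in accession order and do not pair arrays across groups. No member passed the threshold under any alternative run, with 0 members also whenever 1 unit was left out. The Slc17a7 log2 range of 5.97 was 2.67 with normexp and 2.72 without saline replicates 4 and 5 and chronic replicate 8. The count of 17 member pairs was 13 to 20 with 1 unit left out (17 to 21 by Spearman's rho), and Rorb passed with none, 0 of 7, each time. The count of 2 marker lists past the threshold was 4 over arrays without saline replicate 4 (other cortical, interneuron, striatal and choroid plexus genes), and 1 to 3 with 1 unit left out.

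Small differences between groups changed sign in these cases, and the cause was not tested. With normexp, acute minus saline became 0.0062 for Cux2 and -0.03 for Fezf2. Neurod1, chronic minus acute, became -0.0048 over 24 arrays and without saline replicate 4, -0.0679 with the letter as a random block and -0.0805 with slide as a block. Fezf2, acute minus saline, was -0.21 over single arrays without saline replicate 4. Over single arrays without the 3 low ones, acute minus saline was -0.39 for Slc17a7, -0.34 for Neurod6, -0.25 for Neurod2, -0.0932 for Neurod1 and -0.55 for Fezf2. Chronic minus saline was 0.0217 for Rorb in that fit. With the other probe, Rorb was -0.19 for acute minus saline and 0.15 for chronic minus acute, and Cux2 was -0.24 for chronic minus saline.

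With 1 unit left out, acute minus saline ranged from -0.0763 to 0.60 for Slc17a7, -0.0847 to 0.60 for Neurod6, -0.20 to 0.27 for Neurod1, -0.19 to 0.0754 for Cux2, -0.0845 to 0.0609 for Rorb and -0.42 to 0.28 for Fezf2. Chronic minus saline ranged from -0.14 to 0.38 for Neurod1, -0.14 to 0.24 for Cux2 and -0.0537 to 0.65 for Fezf2. Chronic minus acute ranged from -0.0081 to 0.60 for Slc17a7, -0.0569 to 0.36 for Neurod2, -0.22 to 0.30 for Neurod1 and -0.11 to 0.27 for Cux2. Dim probes limit Tbr1, Neurod1 and the second Cux2 probe, which were well above background on 9, 13 and 13 of 24 arrays.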

Other observations

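Among genes with a symbol, the 5 with the lowest r with Slc17a7 over the 24 arrays were Synpo2l at -0.85, Mycbp (a MYC-binding protein) at -0.84, Ccpg1os at -0.84, Nnt (a mitochondrial transhydrogenase) at -0.83 and Myl12a (a myosin light chain) at -0.83. Over the 21 arrays without the 3 lowest, Ccpg1os kept -0.73, Myl12a -0.66 and Nnt -0.64, while Synpo2l fell to -0.27.

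Arrays whose titles share a letter differed in the cortical genes by amounts like those between other arrays of a group. Neurod6, well above background on every array, differed by 3.71 between chronic replicates 6 and 8 and by 2.47 between saline replicates 2 and 5. The median difference over the 6 such pairs was 0.65 for Neurod6 and 0.74 for Neurod2, against 0.67 and 0.86 over 56 other pairs of arrays of 1 group on different slides. Over all genes the consensus correlation of such pairs was -0.37.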
